A study of Mus musculus with 8 samples.

Results

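The state of mouse macrophages after disulfiram followed by lipopolysaccharide (DSF+LPS) was compared with that of cells given neither agent (control). The 2 DSF+LPS and 2 control libraries were taken by their treatment labels, with no measured value used, and are 4 of 8 libraries in all. The cells were iBMDM, an immortalized line of bone marrow-derived macrophages of wild-type genotype. All groups had a pretreatment of 0.5 h and a second treatment of 4 h. Control cells had the solvents DMSO and then water, DSF cells 5 μM disulfiram and then water, LPS cells DMSO and then 1 μg/ml LPS, and DSF+LPS cells 5 μM disulfiram and then 1 μg/ml LPS. The LPS and the DSF groups, also of 2 libraries each, are used here only to place the combined state. Samples carry the numbers 1 and 2 in each group, but no label calls them separate cultures, so p-values measure only the spread between samples, which may be technical, and a line that has been immortalized is a limited model of a primary macrophage.

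LPS, a component of the outer membrane of Gram-negative bacteria, is passed by CD14 to the receptor TLR4 and its partner MD-2. From there one branch runs through the adaptor MyD88 to NF-kB and inflammatory cytokines, and another through TRIF to type I interferon and the interferon-stimulated genes. Disulfiram, a drug used against alcohol dependence, inhibits aldehyde dehydrogenase and reacts with thiol groups of proteins. Its metabolite binds copper. Cells answer damaged proteins with heat shock chaperones, electrophiles with the targets of the transcription factor NRF2, excess metal with metallothioneins, and several kinds of stress with the ATF4 programme called the integrated stress response.

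Library totals ran from 17822041 to 21694922 counts. Of the 9 macrophage markers, Cd68, Csf1r, Lyz2, Spi1 and Ptprc were all above 100 CPM (a gene's counts scaled to the size of its library) in the 4 libraries. The 9 markers summed to 2629 and 2687 CPM in control and 2305 and 2386 CPM in DSF+LPS, but did not move as one. On the same plain totals Csf1r, Spi1, Itgam, Fcgr1 and Ptprc were lower in both DSF+LPS libraries than in control, and Cd68, Lyz2 and Adgre1 higher. Fcgr1 had 45.4 and 48.2 CPM in control and 9.32 and 9.47 CPM in DSF+LPS, and Ptprc 269 and 277 against 119.5 and 117 CPM. Cd68 had 617 and 641.5 against 752 and 900 CPM. Mertk was at most 2.24 CPM. The neutrophil gene S100a9 and the lymphocyte genes Cd3e, Cd3g and Nkg7 were at 0 in all 4, and the summed levels of the 7 neutrophil, 7 dendritic cell, 7 lymphocyte, 6 fibroblast and 7 epithelial and endothelial markers were at most 1.05, 3.57, 2.71, 2.38 and 11.8 CPM. Of these markers 1, 3, 1, 1 and 3 passed the filter on low counts, and Flt3, Xcr1, Cd79a, Acta2 and Pecam1 were called higher in DSF+LPS than in control, each under 3 CPM (Acta2 not without control replicate 2). The make-up of the libraries also differed. Control libraries had counts in 19779 and 20318 genes and DSF+LPS libraries in 25081 and 23416. The 10 most abundant genes took 4.95% and 4.85% of counts in control and 8.39% and 8.04% in DSF+LPS. Genes named as ribosomal proteins, processed pseudogenes included, took 3.81% and 3.57% against 5.12% and 5.05% (1.79% and 1.68% against 2.38% and 2.42% without the pseudogenes). Genes of the mitochondrial DNA took 1.96% and 1.91% against 1.35% and 1.33%. The part of these differences in the results below was not tested. The 2 DSF+LPS libraries stood further apart than those of any other group, with a median absolute log2 difference of 0.137 over 10641 genes against 0.0796 in control. In bulk RNA, fewer cells of a type and less RNA per cell cannot be told apart.

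Most genes tested differed between the combined state and control, and nearly as many differed with DSF alone. Of 16304 genes tested with edgeR's quasi-likelihood test, 5594 (34.3%) were higher and 5030 (30.9%) lower than in control at a Benjamini-Hochberg adjusted p under 0.05, which is what "rose" and "fell" mean below. Large changes were mostly rises: 3268 genes rose and 1519 fell by at least 2-fold, and 1383 rose and 40 fell by at least 8-fold. Of all rises, 447 had 0 control counts and 460 had 1 to 3. The 447 passed the filter on low counts only through other groups. Their median was 1.11 and 0.709 CPM in the DSF+LPS libraries. How much of the excess of large rises rests on such genes was not tested. DSF alone against control gave 5049 higher (31%) and 4418 lower (27.1%) genes, of which 2870 and 845 changed by at least 2-fold and 1239 and 22 by at least 8-fold. This comparison shares the control libraries. With library size alone in place of the trimmed mean of M-values, the median over all genes moved from 0.05 to -0.16 on the log2 scale, and rises made up 41.0% of the calls in place of 52.7% (4500 rises and 6482 falls), so that small changes below are relative to this scaling. Compared with LPS alone, 5497 genes (33.7%) were higher and 5156 (31.6%) lower. Compared with DSF alone, 901 (5.53%) were higher and 1065 (6.53%) lower. The counts against DSF were unstable. They were far lower without DSF replicate 1, and were 324 higher and 200 lower with only the 4 libraries compared. These comparisons share the DSF+LPS libraries. Counts of list members below are to be read beside these shares over all genes.

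Several classical LPS response genes stood above control but below LPS alone in the combined state, as the plot of receptor and response genes shows by library. Tnf, which encodes tumour necrosis factor, had 37 and 38.1 CPM in control, 46.3 and 54.6 CPM with DSF, 833 and 849.9 CPM with LPS and 202 and 259 CPM with both. All libraries with both agents lay above control and DSF and below LPS. Tnf was thus higher than in control (log2 fold change 2.62 ± 0.11, adjusted p = 6.6e-11) and stood at 27.4% of its level in LPS (log2 fold change -1.87 ± 0.10, adjusted p = 8.1e-10). Ptgs2, the gene of cyclooxygenase-2, which makes prostaglandins, had 13.7 and 12.1 CPM in control, 107 and 121 CPM with DSF, 1186 and 1218 CPM with LPS and 349 and 385 CPM with both. It rose over control (log2 fold change 4.83 ± 0.10, adjusted p = 4.0e-14) and reached 30.5% of the LPS level. Cxcl10, an interferon-induced chemokine that attracts T cells, had 11.7 and 12.2 CPM in control, 17.7 and 24.8 CPM with DSF, 1009 and 885 CPM with LPS and 98.9 and 90.4 CPM with both (log2 fold change 2.98 ± 0.13, adjusted p = 8.7e-11 with control), or 9.99% of the LPS level. Groups did not overlap for any of these genes.

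**Figure D1:**
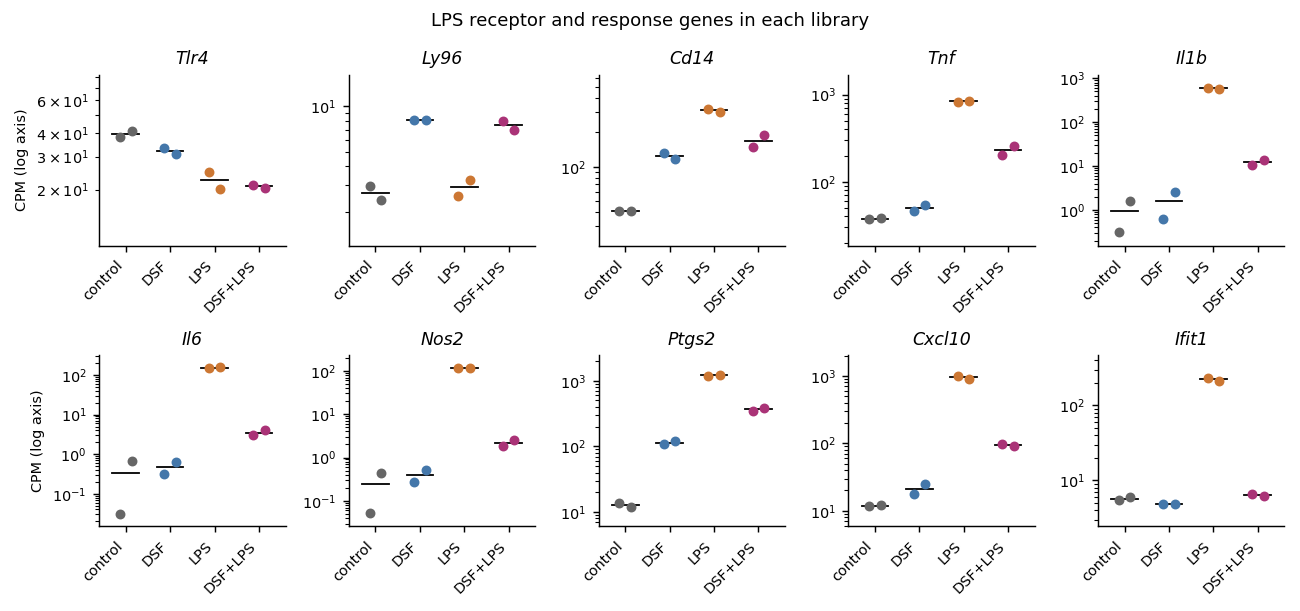
CPM on a log axis of 10 genes of LPS sensing and response in each of the 8 libraries, by treatment group; points are libraries, bars are group means, and a value of 0 is drawn at 0.03 CPM. Tnf, Il1b, Il6, Nos2, Ptgs2 and Cxcl10 in DSF+LPS lie between control and LPS, whereas Ifit1 in DSF+LPS lies near control and Ly96 near DSF.

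Other LPS response genes, nearly silent in untreated cells, rose to low levels. Il1b, the gene of the pyrogenic cytokine interleukin-1 beta, had 0.31 and 1.61 CPM in control, 0.634 and 2.53 CPM with DSF, 608 and 576 CPM with LPS and 10.6 and 13.9 CPM with both. Il6, another pyrogenic cytokine, had 0 and 0.654 CPM in control, 0.317 and 0.62 CPM with DSF, 151 and 158 CPM with LPS and 2.98 and 3.98 CPM with both. Nos2, the inducible nitric oxide synthase, had 0.0517 and 0.436 CPM in control, 0.272 and 0.516 CPM with DSF, 114 and 113 CPM with LPS and 1.87 and 2.56 CPM with both. All 3 genes were above control in both DSF+LPS libraries, at 2.06%, 2.25% and 1.95% of their LPS levels. The rises over control, by 3.58, 3.27 and 3.06 on the log2 scale (adjusted p = 1.3e-06, 2.4e-05 and 2.1e-05), rested on few control counts. Leaving out control replicate 1 gave 2.90, 2.38 and 2.31, and leaving out control replicate 2 gave 5.25, 9.11 and 5.24. The genes were also above DSF alone, by 3.00, 2.90 and 2.49 on the log2 scale, though Il6 was not called there with DESeq2 (adjusted p = 0.071). Ifit1, an antiviral interferon-stimulated gene, had 5.48 and 5.93 CPM in control, 4.89 and 4.91 CPM with DSF, 233 and 214 CPM with LPS and 6.61 and 6.28 CPM with both. It did not pass the test against control (log2 fold change 0.17 ± 0.13, adjusted p = 0.25) and stood at 2.89% of the LPS level.

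The genes of the LPS receptor went different ways. Tlr4 had 38.3 and 41.2 CPM in control, 33.5 and 31.1 CPM with DSF, 24.8 and 20.1 CPM with LPS and 21.1 and 20.5 CPM with both. It fell against control (log2 fold change -0.94 ± 0.11, adjusted p = 5.2e-06), lay close to LPS alone (log2 difference -0.11, adjusted p = 0.44) and was below DSF alone (log2 difference -0.63, adjusted p = 0.0035, and 0.05 without DSF replicate 1). Ly96, which encodes MD-2, had 2.95 and 2.4 CPM in control, 8.06 and 8.11 CPM with DSF, 2.55 and 3.25 CPM with LPS and 8.02 and 6.99 CPM with both. Its rise over control (log2 fold change 1.49 ± 0.21, adjusted p = 2.0e-05) left it near DSF alone, with a log2 difference from it of -0.11 (adjusted p = 0.78). Cd14 had 40.8 and 40.5 CPM in control, 131 and 117 CPM with DSF, 324 and 306 CPM with LPS and 150.3 and 189 CPM with both and rose over control (log2 fold change 2.06 ± 0.10, adjusted p = 4.1e-10), to 54% of the LPS level. Of 24 tested genes of LPS sensing and proximal signalling, 9 rose and 10 fell, against 34.3% and 30.9% of all genes. Their median log2 fold change was -0.02, against 0.05 for all genes. It was 0.0060 with relative log expression size factors and 0.0084 without DSF+LPS replicate 2. Those that fell included Cd180, a TLR4-related surface receptor, from 134 and 143 to 23.5 and 37.3 CPM, and Ticam2, the adaptor that brings TRIF to TLR4, from 10.3 and 12.7 to 2.88 and 2.35 CPM. Those that rose included the gene of TRIF itself, Ticam1, from 16.2 and 17.2 to 38.6 and 51.7 CPM, and the kinase gene Irak2, from 31.8 and 32.6 to 73.3 and 77.8 CPM.

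The interaction asks whether the LPS response in the presence of the drug differs from that in its absence. Over all genes it was positive for 1236 (7.58%) and negative for 1981 (12.2%). Among the 10 genes above, 8 had a negative interaction, from -2.29 for Tnf to -6.24 for Nos2 on the log2 scale (adjusted p = 6.4e-08 and 3.4e-05). The largest were imprecise: without control replicate 2 the interaction was -11.70 for Il6, -8.44 for Nos2 and -7.87 for Il1b, and without control replicate 1 it was -4.97, -5.51 and -5.52. Tlr4 and Ly96 were not called (interaction 0.19 and -0.23, adjusted p = 0.47 and 0.66).

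Secreted factors as a group were above control. Of 21 tested cytokine genes 18 rose and 2 fell. The median log2 fold change was 3.30, or 3.05 when members without a control count are set to their lower bound. Of the 18, Il12b and Inhba lost the call when single libraries were left out. Without DSF+LPS replicate 2 the log2 fold change of Il12b was 3.24 in place of 4.49. Without DSF+LPS replicate 1 that of Inhba was 4.78 in place of 6.01. Compared with LPS alone 5 of the 21 were higher and 13 lower, and compared with DSF alone 12 were higher and none lower. Counts of members against LPS or DSF, here and for the lists below, were not rerun under other settings. Csf3, the granulocyte growth factor, had 0.103 and 0.392 CPM in control, 0.362 and 0.465 CPM with DSF, 243 and 241 CPM with LPS and 9.03 and 12 CPM with both. Both DSF+LPS libraries were far above control and far below LPS, with a log2 fold change over control of 5.30 (4.70 without control replicate 1 and 6.56 without control replicate 2). Lif, leukaemia inhibitory factor, had 0.207 and 0.0436 CPM in control, 3.58 and 3.87 CPM with DSF, 36.3 and 41.3 CPM with LPS and 17.2 and 13.8 CPM with both. The anti-inflammatory cytokine gene Il10 had 0.155 and 0.262 CPM in control, 3.21 and 4.34 CPM with DSF, 5.35 and 5.64 CPM with LPS and 4.84 and 5.89 CPM with both (log2 fold change 4.62 ± 0.37, adjusted p = 5.5e-08 with control), and its log2 difference from LPS was -0.04 (adjusted p = 0.9). Among the 5 cytokine-list genes above LPS alone were Vegfa, the vascular growth factor, at 179 and 146 CPM against 24.9 and 30.5 CPM with LPS, and the stress-induced factor Gdf15. The 2 that fell against control were Il15, which sustains lymphocytes, from 5.07 and 6.06 to 2.88 and 1.64 CPM, and Il18, whose call was lost without control replicate 2 or DSF+LPS replicate 2 (adjusted p = 0.17 and 0.11).

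Chemokine genes were more often higher than control and mostly lower than with LPS alone. Of 15 tested, 10 rose and 1 fell against control (median 1.18, or 1.10 with such members at that bound), while none was higher and 13 were lower than with LPS alone. Of the 10 that rose, Cxcl16 and Cx3cl1 lost the call when single libraries were left out (adjusted p up to 0.56 and 0.18). The 2 not lower than with LPS, Cxcl2 and Cxcl3, encode neutrophil attractants. Cxcl2 had 1.97 and 2.53 CPM in control, 41.1 and 46.3 CPM with DSF, 1532 and 1578 CPM with LPS and 1445 and 1882 CPM with both. The DSF+LPS and LPS libraries overlapped, with a log2 difference of 0.10 ± 0.10 (adjusted p = 0.39, and 0.26 with adjusted p = 0.0042 without DSF+LPS replicate 1), and it rose over control (log2 fold change 9.52 ± 0.16, adjusted p = 2.0e-14). Cxcl3 was at 0 in control, 2.5 and 3.01 CPM with LPS and 2.27 and 3.87 CPM with both. In contrast Ccl3, a macrophage chemoattractant, had 109 and 99.2 CPM in control, 2486 and 2588 CPM with LPS and 292 and 379.7 CPM with both. Ccl9 fell below control, from 193 and 189 to 96.5 and 87.3 CPM (log2 fold change -1.06 ± 0.07, adjusted p = 5.9e-09), although LPS alone had 903 and 915 CPM.

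Genes of NF-kB subunits and feedback were mostly higher than control. Of 26 tested, 21 rose and 4 fell against control (median 1.37), 7 were higher and 18 lower than with LPS, and 23 were higher and none lower than with DSF. Nfkbiz, which encodes an atypical IkB protein, had 10.3 and 9.07 CPM in control, 34.1 and 38.1 CPM with DSF, 321 and 314 CPM with LPS and 182 and 200.4 CPM with both, or 60.2% of the LPS level. Traf1, a signalling adaptor of TNF receptors, had 3.26 and 2.75 CPM in control, 20.5 and 22.4 CPM with DSF, 184 and 168 CPM with LPS and 96.3 and 115 CPM with both, or 60.1%. Dusp1, a phosphatase that switches off MAP kinases, did not follow LPS, with 6.36 and 6.02 CPM in control, 205 and 237 CPM with DSF, 9.48 and 6.84 CPM with LPS and 349.6 and 303 CPM with both (log2 fold change 5.72 ± 0.14, adjusted p = 2.8e-13 with control). Relb, an NF-kB subunit, had 27.7 and 27.1 CPM in control, 43.8 and 48.8 CPM with DSF, 75.4 and 73.6 CPM with LPS and 117 and 118 CPM with both, higher with both agents than with either. The 4 genes that fell were Cyld, Birc3, Nfkbie and Tnip3. Birc3, an inhibitor of apoptosis, had 42.3 and 45.6 CPM in control, 142 and 143 CPM with LPS and 23.9 and 29.9 CPM with both.

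Of 20 tested inflammatory effector genes 14 rose and 4 fell against control (median 2.1). Acod1, the enzyme that makes itaconate, had 15.2 and 17.7 CPM in control, 15.3 and 17.5 CPM with DSF, 2273 and 2217 CPM with LPS and 302 and 469 CPM with both. DSF and control libraries overlapped, and with both agents it reached 17.2% of LPS. Mmp13, a collagenase, had 0.362 and 0.479 CPM in control, 2.99 and 4.23 CPM with DSF, 83.8 and 87.8 CPM with LPS and 15.8 and 17.6 CPM with both. Ptgs1, the constitutive cyclooxygenase, fell from 195 and 184 to 65.8 and 53.2 CPM.

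**Figure D2:**
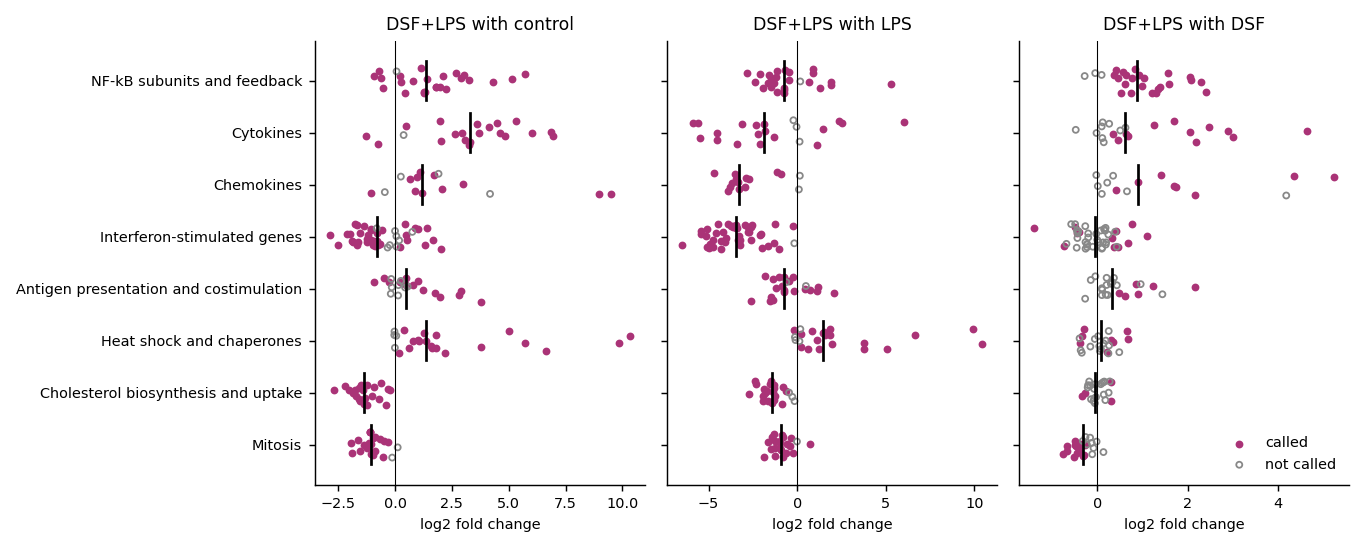
Log2 fold changes of the members of 8 gene lists for DSF+LPS with control (left), with LPS (middle) and with DSF (right); each point is a gene, filled where called at adjusted p under 0.05, and bars are list medians. Interferon-stimulated genes lie at a median of -0.81 against control and -3.44 against LPS, and cholesterol genes at -1.36 and -1.44. The 3 panels share the DSF+LPS libraries.

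Most interferon-stimulated genes were lower in the combined state than in untreated cells. Of 44 tested, 26 fell and 10 rose, with a median log2 fold change of -0.81, and 43 of the 44 were lower than with LPS alone (median -3.44), the other being Bst2. Against DSF alone 7 were higher and 5 lower. Letters of the interferon response element core (GAAANNGAA, N any base) were searched on both strands. They occurred in 23 of the 35 promoters of these genes that the RefSeq table held (65.7%). Of all 27025 promoters of 300 bases 8.57% had them, and of the 10474 of tested genes 7.49%. Among tested genes they occurred in 6.98% of those that rose and 7.92% of those that fell. The NF-kB site core (GGGANTTTC, the only spelling searched, so other forms of the site were not counted) was searched likewise. It occurred in 2 of 10 chemokine promoters, 2 of 14 cytokine promoters and 2 of 23 promoters of the NF-kB list. It occurred in 1.15% of all promoters and 0.983% of those of tested genes (1.21% of genes that rose and 0.762% of genes that fell). Stretches of 100 bases upstream of the start site are given for genes that ended above control (Cxcl2, Cxcl10), near control (Ifit1) and below control (Igtp, Slfn5). They were chosen for display after their matches and values were seen. Each stretch was placed to hold the most matches, so distances from the start differ. In the order shown they begin 143, 250, 142, 100 and 189 bases before it. Coordinates are those of the table's build GRCm38.p6, matched by symbol, whereas GRCm39 is the build the submitters' processing notes name. The strand is that of the gene, and capitals mark the NF-kB core in Cxcl2 and the interferon response element core in the others. In Ifit1 a pair of matches overlap each other, and none shown overlapped a match of the other patterns searched. A match is a string of letters, not a tested site.
Cxcl2 (chr5:90903756-90903855, + strand): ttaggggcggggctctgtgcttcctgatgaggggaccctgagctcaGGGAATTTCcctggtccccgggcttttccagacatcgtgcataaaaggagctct
Cxcl10 (chr5:92349040-92349139, - strand): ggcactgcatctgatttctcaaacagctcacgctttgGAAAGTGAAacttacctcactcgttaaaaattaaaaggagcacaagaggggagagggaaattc
Ifit1 (chr19:34640747-34640846, + strand): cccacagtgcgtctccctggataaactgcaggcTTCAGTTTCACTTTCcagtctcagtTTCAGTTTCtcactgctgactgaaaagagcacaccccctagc
Igtp (chr11:58199456-58199555, + strand): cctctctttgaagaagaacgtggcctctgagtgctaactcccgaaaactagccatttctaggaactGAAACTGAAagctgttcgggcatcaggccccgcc
Slfn5 (chr11:82951913-82952012, + strand): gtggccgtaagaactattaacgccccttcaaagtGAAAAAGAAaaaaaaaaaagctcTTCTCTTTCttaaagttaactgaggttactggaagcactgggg

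Slfn5, a Schlafen family gene, had 9.16 and 9.46 CPM in control, 2.58 and 2.74 CPM with DSF, 69.7 and 67.5 CPM with LPS and 1.51 and 1.69 CPM with both. Igtp, an interferon-inducible GTPase that acts against intracellular parasites, had 16.5 and 16.3 CPM in control, 4.53 and 5.53 CPM with DSF, 72.7 and 74.9 CPM with LPS and 3.84 and 3.66 CPM with both. Both DSF+LPS libraries lay below both control libraries, and both LPS libraries above, for either gene. On the log2 scale the falls were -2.54 and -2.13 (adjusted p = 5.9e-09 and 6.0e-09). Eif2ak2, the RNA-activated kinase PKR, had 60.8 and 71.6 CPM in control, 155 and 162 CPM with LPS and 18.4 and 15.3 CPM with both. Among the 10 that rose was Rsad2, the antiviral enzyme viperin, with 13.2 and 15.4 CPM in control, 28.3 and 28.4 CPM with DSF, 524 and 487 CPM with LPS and 40.7 and 34.5 CPM with both, or 7.45% of LPS. Mx2, an antiviral GTPase, had 2.22 and 3.09 CPM in control, 9.19 and 12.8 CPM with DSF, 67.5 and 60.8 CPM with LPS and 12.8 and 8.73 CPM with both, so its level with both agents lay near DSF alone. Isg15, a ubiquitin-like modifier, rose and had 9.52 and 10.4 CPM in control and 21 and 18.9 CPM with both. Mx1 also rose, but its call was lost without control replicate 2 or DSF+LPS replicate 1 (log2 fold change 1.31, and 1.17 and 0.84 there). Others of the 10 that rose were unstable as well. Oas1g, Oasl1 and Slfn4 lost the call with library size alone (adjusted p = 0.87, 0.072 and 0.095). Gbp2 lost it without control replicate 1 (log2 fold change 0.86, and 0.64 there). Of the 26 that fell, Gbp3 and Ifi44 lost the call when single libraries were left out.

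Antigen presentation genes did not move as one. Of 22 tested, 11 rose and 3 fell against control (median 0.46), and 4 were above each of the other 3 groups: H2-K1, H2-D1, H2-Q7 and Cd74. H2-K1, a classical class I heavy chain, had 653 and 612 CPM in control, 915 and 997 CPM with DSF, 932 and 861 CPM with LPS and 1486 and 1454 CPM with both. Cd74, the invariant chain of class II, had 289.9 and 283 CPM in control, 591 and 624 CPM with DSF, 508 and 498 CPM with LPS and 1053 and 1164 CPM with both (log2 fold change 1.95 ± 0.07, adjusted p = 7.4e-12 with control). The peptide transporter genes Tap1 and Tap2 and the tapasin gene Tapbp fell. Tap1 had 38.1 and 37.6 CPM in control, 128 and 113 CPM with LPS and 21.2 and 18.3 CPM with both. The costimulatory gene Cd40 rose from 18.7 and 19.8 to 123 and 145 CPM. With library size alone 6 members fell in place of 3. B2m, H2-Aa and Cd274, of the 11 that rose, lost the call there (adjusted p = 0.85, 0.072 and 0.11). H2-Aa also lost it with DESeq2 (adjusted p = 0.083), and H2-Eb1 lost it without control replicate 1 (log2 fold change 2.895, and 2.022 there). Reads of class I genes may be shared between near-identical copies, and how the authors counted these is not given in the sources used here.

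Of 16 inflammasome and pyroptosis genes 5 rose and 8 fell, against 34.3% and 30.9% of all genes. Nlrp3, the sensor of the best known inflammasome, had 49.2 and 47.9 CPM in control, 80.7 and 74.6 CPM with DSF, 619.7 and 616 CPM with LPS and 209 and 271 CPM with both, and Casp4, the caspase that binds intracellular LPS, rose from 5.85 and 4.14 to 23.1 and 25.4 CPM. The NLRP3 partner Nek7 fell from 61.7 and 70.8 to 37.4 and 33.2 CPM and Txnip, which binds thioredoxin, from 193 and 192 to 69.6 and 65.2 CPM. Mefv, the pyrin gene, rose by 4.07 on the log2 scale from under 1 CPM (5.09 without control replicate 1, 3.39 without control replicate 2 and 3.17 without DSF+LPS replicate 2).

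**Figure D3:**
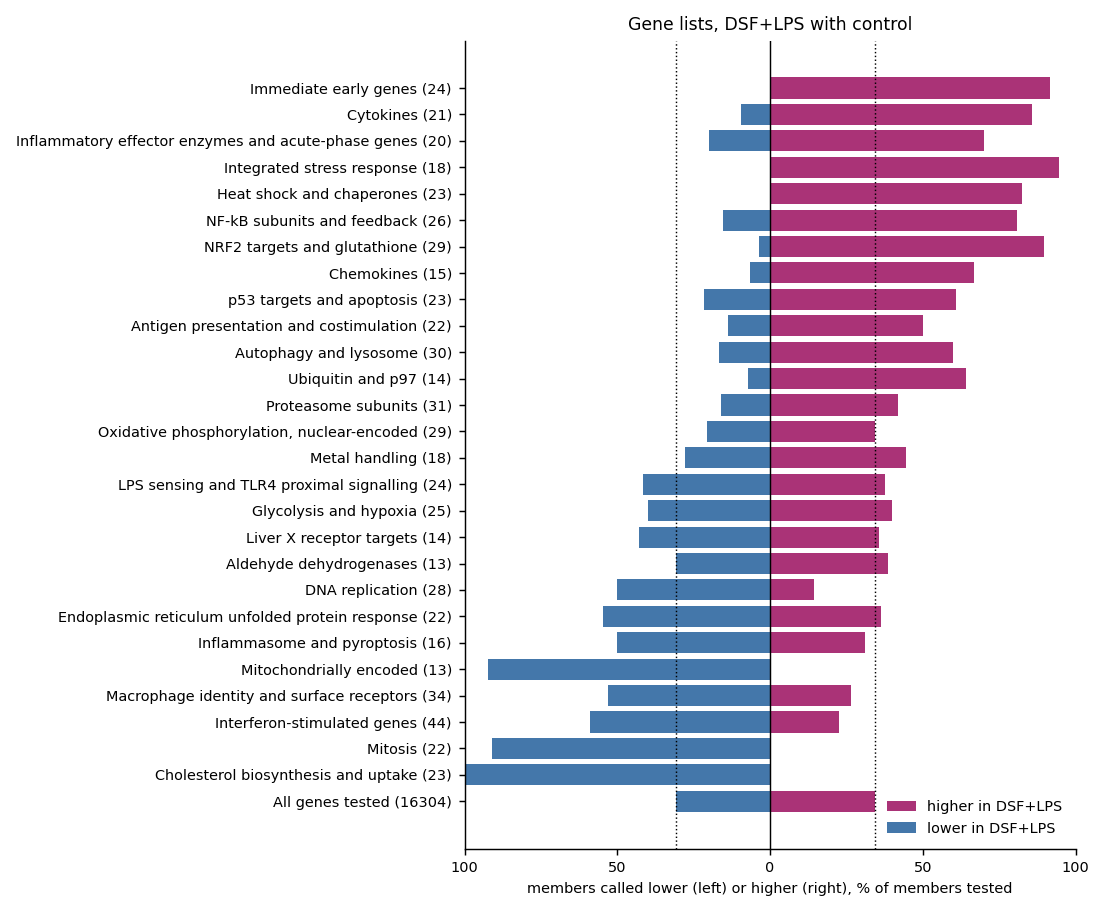
Share of tested members called higher (right) or lower (left) in DSF+LPS than in control, in % of members tested, for each gene list with at least 10 tested members (number in brackets), ordered by median log2 fold change; dotted lines mark the shares over all 16304 genes (34.3% and 30.9%). All 23 cholesterol genes were lower, and 22 of 24 immediate early genes were higher.

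Heat shock and chaperone genes rose together, and the inducible HSP70 genes were among the largest rises of all. Of 23 tested 19 rose and none fell (median 1.37). With library size alone 3 fell. The heat shock element core (GAANNTTC, which reads the same on both strands) occurred in 10 of 19 promoters of the list (52.6%). Shares were 7.95% of all promoters and 5.6% of the 10474 of tested genes. Among tested genes it occurred in 5.69% of those that rose and 5.06% of those that fell. The stretch before the start sites of the inducible HSP70 genes Hspa1a and Hspa1b is shown because their counts rose most and because the 2 copies read the same over these 100 bases, with the core in capitals. The display was chosen after the matches were seen, and the stretch begins 150 bases before each start.
Hspa1a (chr17:34972207-34972306, - strand): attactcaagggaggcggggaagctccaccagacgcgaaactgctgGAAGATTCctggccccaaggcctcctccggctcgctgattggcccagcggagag
Hspa1b (chr17:34959289-34959388, - strand): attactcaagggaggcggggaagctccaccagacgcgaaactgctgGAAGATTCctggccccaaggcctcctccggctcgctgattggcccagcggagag

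Hspa1a had 3.26 and 4.1 CPM in control, 2687 and 3343 CPM with DSF, 3.44 and 3.39 CPM with LPS and 5773 and 3813 CPM with both. Hspa1b had 14.1 and 19.3 CPM in control, 8593 and 11043 CPM with DSF, 16.6 and 15 CPM with LPS and 17986 and 13407 CPM with both. Both genes were close to control with LPS alone and far higher in all 4 libraries with the drug. Log2 fold changes over control were 10.33 ± 0.23 and 9.87 ± 0.20 (adjusted p = 1.1e-13 and 4.0e-14). How reads were split between the 2 copies is uncertain. Both were also above DSF alone, by 0.67 and 0.68 (adjusted p = 0.0077 and 0.0053), but not without DSF replicate 1 (adjusted p = 0.11 and 0.078). Dnajb1, an HSP40 cochaperone, rose from 42 and 43.3 to 1686 and 1052 CPM, and Hsph1, an HSP110 chaperone, from 209.9 and 209 to 2932 and 2739.5 CPM. Of 14 ubiquitin and p97 genes 9 rose and 1, Nsfl1c, fell, a call lost without control replicate 1 (adjusted p = 0.089). Ubb, a polyubiquitin gene, rose from 540.4 and 514 to 3674 and 3500 CPM. Of 31 proteasome subunits 13 rose and 5 fell with a median of 0.14, against 34.3% and 30.9% of all genes. With library size alone 5 rose and 10 fell, with a median of -0.07. Only 8, 6 and 8 rose without control replicate 1, control replicate 2 and DSF+LPS replicate 1, and 3 fell without control replicate 2.

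Redox genes were mostly higher. Of 29 NRF2 targets and glutathione genes 26 rose and 1, the NRF2 inhibitor gene Keap1, fell (median 1.23), or 3 with library size alone. Hmox1, the heme-degrading enzyme, had 188 and 181 CPM in control, 6762 and 6183 CPM with DSF, 212 and 213 CPM with LPS and 6089.6 and 7719.8 CPM with both (log2 fold change 5.22 ± 0.10, adjusted p = 4.0e-14 with control). Slc7a11, the cystine transporter, had 14.5 and 13.3 CPM in control, 439.6 and 382 CPM with DSF, 125 and 135 CPM with LPS and 354 and 441 CPM with both. Srxn1, sulfiredoxin, had 69.3 and 73.8 CPM in control, 940.2 and 795 CPM with DSF, 92 and 91.9 CPM with LPS and 788 and 1169.9 CPM with both. In all 3 genes the DSF+LPS libraries lay far above control and near DSF alone. In DSF+LPS replicate 1 only 2 of the 29 genes were higher than in replicate 2 (median log2 difference -0.195), a difference between libraries whose part in the result was not tested. Of 18 metal-handling genes 8 rose and 5 fell (median 0.02), and 8 fell with library size alone (median -0.18). Over all genes 34.3% rose and 30.9% fell. The metallothionein genes Mt1 and Mt2 rose, Mt1 from 379 and 367 to 4598 and 4881 CPM and Mt2 from 2.95 and 1.79 to 32.1 and 26.8 CPM. So did the zinc exporter gene Slc30a1, from 35 and 37.3 to 123 and 157 CPM. The zinc importer gene Slc39a10 fell from 60.1 and 62.7 to 24.8 and 26 CPM.

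**Figure D4:**
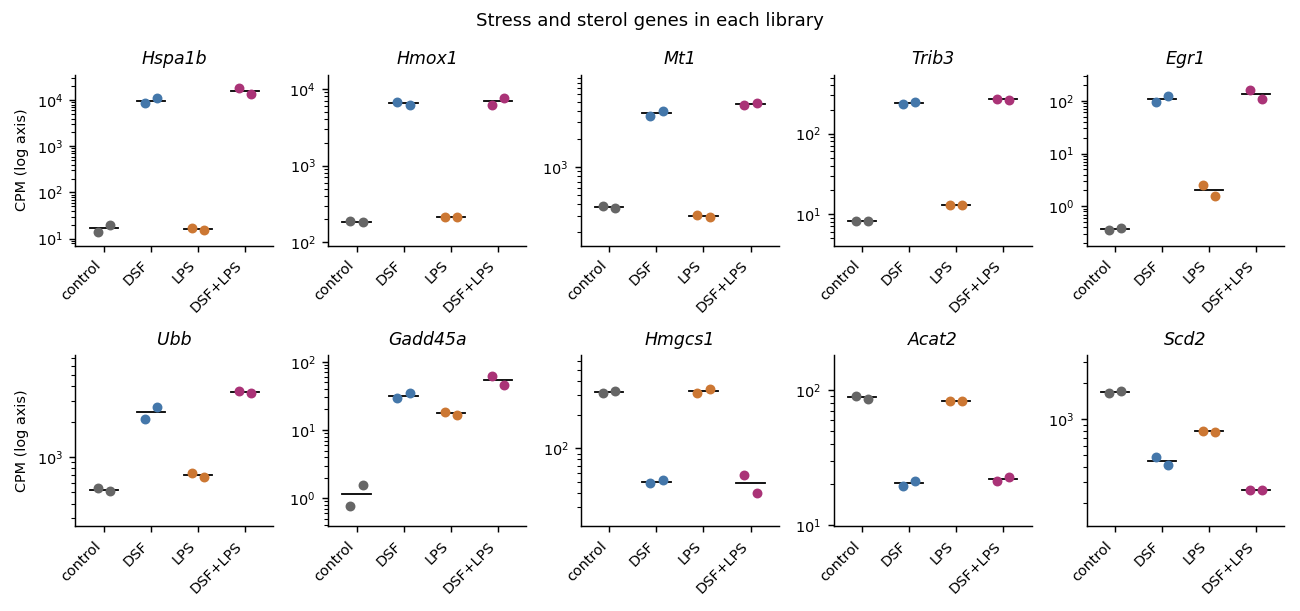
CPM on a log axis of 10 stress and lipid genes in each of the 8 libraries, by treatment group; points are libraries and bars are group means. Hspa1b, Hmox1, Mt1 and Trib3 are high and Hmgcs1 and Acat2 low in all 4 libraries with DSF, and the LPS libraries lie near control for these genes.

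Genes of the integrated stress response rose almost throughout, 17 of 18 with none lower (median 1.88). Trib3, a pseudokinase induced by ATF4, had 8.07 and 8.24 CPM in control, 234 and 246 CPM with DSF, 13 and 12.8 CPM with LPS and 273 and 262 CPM with both. Chac1, which degrades glutathione, rose from 4.14 and 2.22 to 139 and 84.2 CPM, Ppp1r15a, which restores translation, from 23.5 and 19.5 to 586 and 524 CPM, and Ddit3, the gene of CHOP, from 8.12 and 8.33 to 99.1 and 83.1 CPM. Genes of the endoplasmic reticulum unfolded protein response did not go with them, with 8 of 22 higher and 12 lower (median -0.34). Over all genes 34.3% were higher and 30.9% lower. The sensor kinase genes Ern1 and Eif2ak3 rose, to 111 and 114 CPM from 26.6 and 33.1 and to 91.7 and 63.7 CPM from 27.8 and 30.1. The transcription factor gene Xbp1 fell from 147 and 145 to 73.2 and 68.1 CPM and the chaperone gene Hyou1 from 304 and 326 to 145 and 144 CPM.

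Of 24 immediate early genes, which respond to stimuli without new protein synthesis, 22 rose, all by at least 2-fold, and none fell (median 3.58). Egr1, a zinc finger factor, had 0.362 and 0.392 CPM in control, 95.6 and 121 CPM with DSF, 2.5 and 1.58 CPM with LPS and 157 and 109 CPM with both. Arc had 1.19 and 1.44 CPM in control, 352 and 508 CPM with DSF, 0.933 and 0.813 CPM with LPS and 854 and 494 CPM with both. Fosb, an AP-1 subunit, had 0.673 and 0.697 CPM in control and 216 and 94.8 CPM with both, so that its log2 fold change of 7.81 was 7.07 without DSF+LPS replicate 1. In DSF+LPS replicate 1, 19 of the 24 genes were higher than in replicate 2 (median log2 difference 0.318), and the part of this in the result was not tested. Myc and Ier3 were, unlike these, also high with LPS: Myc had 0.103 and 0 CPM in control, 4.47 and 3.68 CPM with LPS and 3.43 and 3.93 CPM with both. Genes of autophagy and the lysosome rose in 18 and fell in 5 of 30 cases. The selective autophagy receptor gene Optn had 1.97 and 1.66 CPM in control, 18.6 and 20.5 CPM with DSF, 5.99 and 5.45 CPM with LPS and 31.3 and 33 CPM with both, and Gabarapl1, which encodes an LC3-like protein, rose from 50.9 and 46.1 to 214 and 241 CPM. Tfeb, which drives lysosomal genes, fell from 25 and 24.9 to 7.57 and 7.42 CPM.

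Genes of cholesterol synthesis fell without exception, though the calls of Ebp and Insig1 were not stable. All 23 tested genes of cholesterol biosynthesis and uptake were lower than control, 17 of them by at least 2-fold (median -1.36), and 20 were lower than with LPS alone. The sterol regulatory element core (TCACNCCAC, both strands) occurred in 1 of 17 promoters of the list (5.88%) against 1.22% of all and 1.01% of tested genes. A stretch of that promoter, from 183 bases before the start, is shown with the core in capitals, because Hmgcs1 fell most.
Hmgcs1 (chr13:119690168-119690267, + strand): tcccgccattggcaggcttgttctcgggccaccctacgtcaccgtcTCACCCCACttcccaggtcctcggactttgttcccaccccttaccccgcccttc

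Hmgcs1, an early enzyme of the pathway, had 309.8 and 324 CPM in control, 48.9 and 52.2 CPM with DSF, 314 and 337 CPM with LPS and 58.5 and 40.5 CPM with both (log2 fold change -2.68 ± 0.12, adjusted p = 1.7e-10 with control). Acat2, which makes its substrate, had 90.6 and 86.3 CPM in control, 19.5 and 21.2 CPM with DSF, 82.6 and 83.1 CPM with LPS and 21.2 and 22.6 CPM with both. Fdft1, squalene synthase, had 98.1 and 82.2 CPM in control, 20.8 and 20.0 CPM with DSF, 97.8 and 96.2 CPM with LPS and 21.1 and 18.3 CPM with both. All libraries with the drug lay below all without it. Ebp was called lower (log2 fold change -0.24, adjusted p = 0.034), a call lost with DESeq2 (adjusted p = 0.12), and that of Insig1 was lost with DESeq2 as well (adjusted p = 0.089). Of 14 liver X receptor targets 5 rose and 6 fell, against 34.3% and 30.9% of all genes. The desaturase genes fell, with Scd2 at 1640.3 and 1706 CPM in control, 479 and 414 CPM with DSF, 798 and 782 CPM with LPS and 255 and 258 CPM with both, and Scd1 going from 217 and 243 to 58.7 and 63 CPM, whereas Abca1, the cholesterol exporter, rose from 45.5 and 52.4 to 102 and 104 CPM. Mylip, a ubiquitin ligase gene, rose by 2.74 on the log2 scale (2.05 without DSF+LPS replicate 1).

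Energy metabolism showed no common direction, with 10 of 25 glycolysis and hypoxia genes higher and 10 lower (the median changed sign between scalings). Over all genes 34.3% were higher and 30.9% lower. The glucose transporter gene Slc2a1 had 195 and 177 CPM in control, 666 and 706 CPM with DSF, 351 and 357 CPM with LPS and 788 and 782 CPM with both. The hexokinase gene Hk2 had 205 and 203 CPM in control, 108 and 96.3 CPM with DSF, 377 and 382 CPM with LPS and 95.5 and 107 CPM with both. Of 29 nuclear genes of oxidative phosphorylation 10 rose and 6 fell (median 0.10), and 13 fell with library size alone (median -0.11). Without DSF+LPS replicate 1 the median was -0.0019. Of 13 aldehyde dehydrogenases, the family the drug inhibits, 5 rose and 4 fell, shares near those over all genes (34.3% and 30.9%). Aldh2, the mitochondrial enzyme of alcohol metabolism, had 419.7 and 408 CPM in control and 568 and 553 CPM with both (log2 fold change 0.44 ± 0.06, adjusted p = 2.2e-05). Of the 4 that fell, Aldh1b1, Aldh3b1 and Aldh6a1 lost the call when single libraries were left out (adjusted p up to 0.10, 0.15 and 0.079), as did Aldh1a3 and Aldh7a1 of the 5 that rose (adjusted p up to 0.14 and 0.077). Aldh9a1 fell from 149 and 143 to 118 and 113 CPM.

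Mitotic genes were lower, and several p53 target and damage-response genes higher. Of 22 mitosis genes 20 fell and none rose (median -1.05), the others being Bub3 and Cenpf. Plk1, a mitotic kinase, had 204 and 199.9 CPM in control, 79.9 and 65.3 CPM with DSF, 193 and 186 CPM with LPS and 43.8 and 60.1 CPM with both. Kif11, the spindle motor Eg5, had 127 and 136 CPM in control, 67.5 and 52.4 CPM with DSF, 109.8 and 114 CPM with LPS and 38.9 and 32.5 CPM with both, below every other group, a call lost without DSF replicate 1 (adjusted p = 0.056). Of 28 DNA replication genes 14 fell and 4 rose, against 30.9% and 34.3% of all genes. Rrm1, a subunit of ribonucleotide reductase, fell from 349 and 358 to 140.5 and 132 CPM, while the replication gene Mcm10 rose from 106 and 107 to 213 and 191 CPM. Of 23 p53 target and apoptosis genes 14 rose and 5 fell, against 34.3% and 30.9% of all genes. Gadd45a, a damage-response gene, had 0.776 and 1.57 CPM in control, 29.1 and 34.6 CPM with DSF, 18.7 and 16.5 CPM with LPS and 62.2 and 45.3 CPM with both (log2 fold change 5.48, and 6.09 without control replicate 2), and the kinase gene Plk2 had 77.9 and 74.8 CPM in control, 442 and 456 CPM with DSF, 229 and 247 CPM with LPS and 664 and 738 CPM with both. The proapoptotic gene Bcl2l11 rose from 47.2 and 50.6 to 341 and 352 CPM. Sesn1 and Ccng1, also known as p53 targets, fell, Sesn1 from 36.9 and 33 to 4.95 and 4.69 CPM.

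Macrophage identity and surface receptor genes were more often lower, with 18 of 34 down and 9 up (median -0.48). The transcription factor gene Maf had 78 and 87.2 CPM in control, 9.42 and 11.4 CPM with DSF, 52.2 and 51.3 CPM with LPS and 8.68 and 7.31 CPM with both. The chemoattractant receptor gene Gpr183, which senses oxysterols, had 71.5 and 69.1 CPM in control, 7.88 and 5.68 CPM with DSF, 9.57 and 9.13 CPM with LPS and 2.42 and 2.35 CPM with both. The purine receptor gene P2ry13 had 11.8 and 15.2 CPM in control, 1.13 and 0.671 CPM with DSF, 7.61 and 7.36 CPM with LPS and 0.454 and 0.273 CPM with both. Each was lower in all libraries with the drug than in control. Irf5, an inflammatory transcription factor, fell from 83.9 and 81.9 to 20.5 and 17.6 CPM and Tlr2, the receptor of bacterial lipoproteins, from 93.7 and 96.2 to 22.7 and 30.7 CPM. Cd68, a lysosomal marker, rose from 569 and 592 to 798 and 964 CPM.

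Outside the lists, most of the largest rises were in genes with no counts in control. Against a floor of 3 counts over the control group, the calcium channel gene Cacna1h was at least 184-fold, the metalloproteinase gene Mmp28 at least 166-fold, the homeobox gene Uncx at least 166-fold and the deubiquitinase gene Usp17le, one of a family of near-copies, at least 166-fold higher. Uncx had 17.2 and 5.89 CPM in the 2 DSF+LPS libraries, and its fitted value of 10.89 was 9.90 without replicate 1 and 11.49 without replicate 2. Usp17le had 17.1 and 6.06 CPM. In all, 447 genes that rose had 0 control counts and 460 had 1 to 3. Summed over the 447, the level was 410 and 552 CPM with DSF, 55.6 and 53.6 CPM with LPS and 766 and 466 CPM with both. These genes were picked by their rise in DSF+LPS, which favours that group in the sums. In DSF+LPS replicate 1, 347 of the 447 were higher than in replicate 2 (7942 of all 16304 genes), and the part of that library in these rises was not tested. Tex19.1, a germline gene, rose from 0.155 and 0.262 to 290.0 and 205 CPM. The largest falls after P2ry13 and Gpr183 were in Ighm, from 13.1 and 11.6 to 0.858 and 1.15 CPM, and Wdr6, from 86.5 and 88.8 to 8.68 and 6.66 CPM.

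A gene was called beyond every other group where DSF+LPS differed in one direction from control, from LPS and from DSF and the largest of the 3 p-values passed after adjustment. This held for 309 genes above (1.9%) and 520 below (3.19%), and for 48 and 57 without DSF replicate 1. Il1f9, an interleukin-36 family cytokine, had 0.0517 and 0 CPM in control, 1.99 and 1.7 CPM with DSF, 1.57 and 1.77 CPM with LPS and 8.93 and 7.69 CPM with both. Against its 1 control count this is 352-fold (95% counting interval 62.8 to 13964). Gdf15, a stress-induced hormone, had 60.0 and 53.6 CPM in control, 296 and 324 CPM with DSF, 262 and 271 CPM with LPS and 710.3 and 760.4 CPM with both (log2 difference from the nearest group 1.25, adjusted p = 1.2e-06). H2-Q6, a nonclassical class I gene with near-identical copies, had 1.35 and 1.35 CPM in control, 3.21 and 4.18 CPM with DSF, 4.32 and 5.02 CPM with LPS and 9.84 and 12 CPM with both. The 3 calls were kept under each alternative tried, whereas Gabbr2, Gucy2g and Ptges lost theirs without DSF replicate 1 (adjusted p = 0.12, 0.05 and 0.14).

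**Figure D5:**
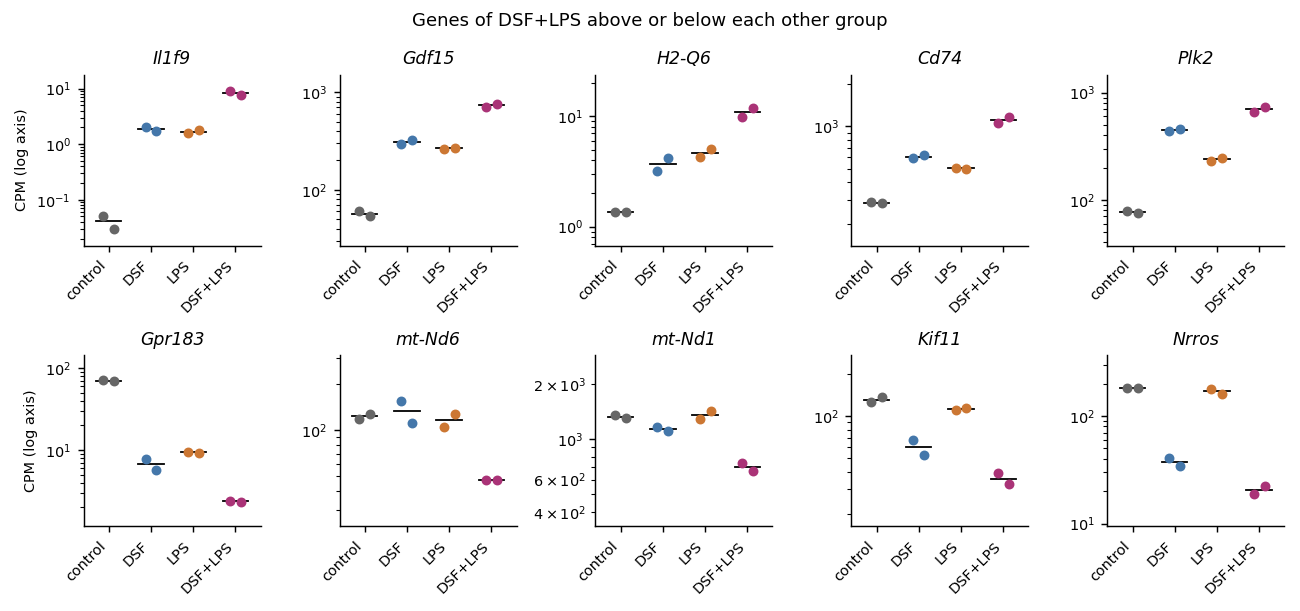
CPM on a log axis of 10 genes called above (Il1f9 to Plk2) or below (Gpr183 to Nrros) every other group in DSF+LPS, in each of the 8 libraries; points are libraries, bars are group means, and a value of 0 is drawn at 0.03 CPM. The 2 DSF+LPS points are the highest or the lowest of the 8 in each panel.

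On the low side stood the genes of the mitochondrial DNA. Of 13 tested, 12 were lower than control (median -0.45), 12 lower than with LPS and 12 lower than with DSF. Of the 13, 9 were called below every other group. The counts against DSF and below every group were not rerun without single libraries. The remaining gene, mt-Atp8, had 12.2 and 15.2 CPM in control and 8.53 and 14 CPM in DSF+LPS. mt-Nd1, a complex I subunit, had 1344 and 1307 CPM in control, 1168 and 1109.6 CPM with DSF, 1279.6 and 1429 CPM with LPS and 743 and 668 CPM with both. mt-Nd6, the complex I subunit on the other strand, had 119.5 and 127 CPM in control, 155 and 112 CPM with DSF, 104 and 128 CPM with LPS and 47 and 47.2 CPM with both (log2 fold change -1.39 ± 0.13, adjusted p = 3.7e-07 with control). mt-Co1, of complex IV, was called with a small difference (log2 fold change -0.13, adjusted p = 0.033), and the call was lost with DESeq2 (adjusted p = 0.19). In mt-Nd6 the DSF and LPS libraries overlapped control, and in mt-Nd1 DSF lay between control and both agents. In Nrros, which restrains reactive oxygen species, the combined state had 18.9 and 22.5 CPM against 40.5 and 34.3 CPM with DSF and 181 and 183 CPM in control. Fam78a, Depdc1a, Kif18a and Ifi47 were also called below every group, each call being lost without DSF replicate 1 (adjusted p = 0.072, 0.058, 0.093 and 0.14).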

How the data were processed

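RNA was measured in 8 libraries of iBMDM cells. What the authors deposited is a single table of raw gene counts, whole numbers by its values. Per the submitters' processing notes GRCm39 and DESeq2 were used, in roles not stated. Not given in the sources used here are the aligner, counter, annotation, strand setting and treatment of reads with several matches, so near-identical, overlapping and antisense genes are uncertain. Of 55414 gene identifiers 52081 matched a symbol. Where identifiers shared a symbol it went to the one with most counts, a choice made after the table was seen.

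From these counts, edgeR 4.0.16 (R 4.3.3) fitted all 8 libraries with a mean per group, TMM scaling and filterByExpr defaults (minimum count 10, minimum total 15), which left 16304 genes. Calls used the quasi-likelihood test, adjusted by Benjamini-Hochberg within each comparison at 0.05. Values after ± are standard errors of log2 fold changes. Levels are CPM on TMM-scaled library sizes, and shares and marker sums use plain totals. They are not per length, so levels are not compared between genes. Zero groups were given a floor of 3 counts, and floors and 95% intervals cover counting error only. Alternatives were DESeq2 1.42.0, other size factors, filters, samples and a replicate term. The script was tested on simulated data.

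The 32 gene lists (686 symbols), the motif letters and the comparisons were chosen with earlier results of these data known. Named were 10 LPS genes, the 8 largest rises and falls and the 6 genes furthest beyond every group each way (mean of at least 5 CPM, both libraries of a group apart, no predicted genes), and up to 4 members of each list by size with up to 4 against its direction. Other genes were named after their values were seen. Promoter sequences are RefSeq's, GRCm38.p6, 250 bases before to 50 after the start, and 10474 tested genes had one. Samples were grouped by their treatment labels.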

Additional observations from a re-analysis of the deposited data

Results flagged for a closer look

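The response to LPS with disulfiram was tested against the response to LPS without it by an interaction term in edgeR's fit over all 8 libraries, and 8 of the 10 receptor and response genes differed at an adjusted p under 0.05. The interaction, in log2 units, was -2.50 for Cd14, -2.29 for Tnf, -6.19 for Il1b, -5.84 for Il6, -6.24 for Nos2, -4.86 for Ptgs2, -4.15 for Cxcl10 and -4.89 for Ifit1. Each was called under all alternatives tried for it. Leaving out single libraries moved the value from -4.90 to -7.87 for Il1b, from -4.97 to -11.70 for Il6 and from -5.51 to -8.44 for Nos2, the last of each without control replicate 2. Groups of 2 libraries are too small for a test of single outlying libraries.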

How the results depend on the processing

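The 190 genes named by a fixed rule kept their direction in all alternatives, and 11 lost the call against control under at least 1. Most were picked by size of change, so this share does not carry to other list members. Among those, Ripk1, Ikbkb, Tnip1, Tnfaip2 and Aim2 lost their calls in edgeR's test with library size alone (adjusted p = 0.99, 0.50, 0.92, 0.48 and 0.54). Counts against DSF were 464 higher and 2190 lower with library size alone and 324 and 200 with only the 4 libraries compared. Genes beyond every other group numbered 151 above and 1232 below with library size alone, and 560 above with every gene of 1 count or more. Leaving out 1 library at a time gave 250 to 1194 higher and 149 to 1212 lower than DSF, 48 to 535 above and 57 to 714 below every group, and interactions of 719 to 1753 positive and 1284 to 2067 negative. The lowest counts against DSF and beyond every group came without DSF replicate 1. Genes above every group also fell to 191, 188 and 176 without control replicate 1, control replicate 2 and LPS replicate 2, and those below to 339, 319 and 331. Positive interactions were 769, 795 and 719 without these 3 libraries. Negative ones were 1303, 1291 and 1284 without control replicate 1, DSF replicate 1 and LPS replicate 2. The cause was not tested.

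Medians of most lists depended on the settings. A median was taken to have moved when it shifted by more than the list's median difference between the DSF+LPS libraries. That held in 77 cases, over 30 lists. With library size alone 24 medians moved, 4 changed sign and 4 did neither. Counts of members called shifted beyond a set limit in 17 cases. Medians near 0 changed sign. For LPS sensing the median was 0.0060 with relative log expression size factors, and leaving out single libraries gave -0.085 to 0.0084. For glycolysis these were 0.0050 and -0.10 to 0.024, and for oxidative phosphorylation -0.0019 to 0.11. With library size alone, which moves the median of all genes, it was -0.18 for metal handling, -0.068 for proteasome subunits, -0.11 for oxidative phosphorylation and -0.045 for epithelial and endothelial markers.

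With the replicate number as a block (replicate block), 5553 genes were higher and 5002 lower than control, and 413 were above and 567 below every group. The correlation of deviations between same-numbered libraries was 0.235 for control with LPS, 0.126 for control with DSF+LPS, 0.104 for DSF with LPS, 0.0864 for LPS with DSF+LPS, 0.043 for control with DSF and -0.201 for DSF with DSF+LPS. As no label pairs the samples and 3 of the 6 values were under 0.1, they were taken to share only a number. DESeq2 called 5300 higher and 4496 lower than control. Depth limits low genes most: with 2 libraries a group, folds resting on few control counts are imprecise.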
